A study of Mus musculus with 12 samples.

Results

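The V segments of the mouse kappa light chain were taken as all genes of the count table whose symbol begins with Igkv, which gave 160 of the 55487 genes. All 160 were found in the GENCODE M21 annotation of mm10, the build the submitters name, between positions 67555497 and 70704177 of chromosome 6, where 100 are annotated as V genes and 60 as V pseudogenes. The libraries were made from mRNA of lymph nodes of mice, 3 for each of 4 groups. In the T groups B16F10 cells, a mouse melanoma line, had been inoculated in the tongue, and in the NT groups they had not. In the NDE groups the nociceptive (pain-sensing) nerves that reach the node draining the tongue had been inhibited, and in the NC groups they had not. The groups are therefore NT NC (no tumour, nerves not inhibited), T NC (tumour, nerves not inhibited), NT NDE (no tumour, nerves inhibited) and T NDE (tumour, nerves inhibited). Per the labels, replicates are independent biological repeats, and whether 1 library is 1 mouse is not said. The sources used here do not give the means of nerve inhibition or the strain, sex and age of the mice, so nothing can be said of what the NC mice received instead.

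A B cell builds its light chain gene by joining 1 V segment to 1 J segment, upstream of a constant region, in most mouse B cells at the kappa locus. The joined gene, which is inherited by the descendants of that cell, is transcribed in all mature B cells and most strongly in antibody-secreting plasma cells. In bulk RNA of a lymph node the V segment counts therefore mix a broad repertoire from many naive B cells with the transcripts of whatever plasma cells and expanded clones the node holds. Fewer cells of a type and less RNA per cell cannot be told apart in such data, nor can 1 large clone be told from several clones with the same V segment.

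The sequences of the 3′ ends of the segments show what is compared, because the last bases of a V segment open the third complementarity-determining region (CDR3), where V meets J. Each line gives the last 62 bases of the annotated coding sequence in mm10, 5′ to 3′ along the gene, and the capitals mark the 26 bases from the conserved cysteine codon to the end. An in-frame cysteine codon near the end was found in 98 of the 100 V genes, and 67 of them have these 26 bases. The first pair had the highest mean shares of the family.
Igkv1-110 (chr6:68271206-68271267, plus strand): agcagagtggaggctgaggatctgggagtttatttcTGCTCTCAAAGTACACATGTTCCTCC
Igkv1-117 (chr6:68121766-68121827, plus strand): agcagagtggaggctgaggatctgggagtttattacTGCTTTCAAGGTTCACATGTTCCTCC
The next 6 hold the 5 segments that took the largest shares in single libraries, and Igkv17-121 as a close relative of Igkv17-127.
Igkv12-46 (chr6:69764523-69764584, minus strand): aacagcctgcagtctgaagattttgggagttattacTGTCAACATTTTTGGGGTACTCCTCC
Igkv17-127 (chr6:67861598-67861659, plus strand): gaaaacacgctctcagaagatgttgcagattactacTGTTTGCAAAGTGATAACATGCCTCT
Igkv17-121 (chr6:68037257-68037318, plus strand): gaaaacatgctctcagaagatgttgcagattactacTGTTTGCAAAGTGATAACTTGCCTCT
Igkv6-15 (chr6:70406469-70406530, minus strand): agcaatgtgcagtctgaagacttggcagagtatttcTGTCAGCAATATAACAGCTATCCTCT
Igkv15-103 (chr6:68437864-68437925, plus strand): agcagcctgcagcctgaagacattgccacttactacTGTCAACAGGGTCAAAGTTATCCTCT
Igkv19-93 (chr6:68736297-68736358, minus strand): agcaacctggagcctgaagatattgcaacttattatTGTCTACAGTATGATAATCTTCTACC
The last pair was large in 1 library and small in the other 11.
Igkv8-19 (chr6:70340876-70340937, minus strand): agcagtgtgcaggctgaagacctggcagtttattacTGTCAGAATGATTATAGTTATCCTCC
Igkv3-1 (chr6:70704116-70704177, plus strand): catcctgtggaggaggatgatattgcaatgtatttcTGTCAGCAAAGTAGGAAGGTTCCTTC
Igkv1-110 and Igkv1-117 differ at 3 of the 26 capital bases and are 97.2% identical over their coding sequences. Igkv17-127 and Igkv17-121 differ at 1 of the 26 and are 97.5% identical, while Igkv12-46 and Igkv17-127 differ at 15 of the 26 and are 60.5% identical. These similarities bear on the counts: 38 of the 100 V genes, which held 49.6% of the family's counts on average, have a relative that is 95 to 98% identical, and 8 more, with 3.52%, have one at 98% or above. The sources used here do not say how reads that fit several segments were counted, so counts of close relatives are uncertain where a read spans no difference.

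Library totals ran from 16862953 to 24467873 counts, of which kappa V segments took 0.0773 to 0.171%, or 13599 to 38155 counts per library. With such family totals the widest 95% Wilson interval on any share of 4% or more that is named here is 0.456 percentage points to either side, and intervals cover counting error only. A salivary protein gene, Bpifa2, reached 997 CPM (counts per 1000000 counts of the library) in NT NC replicate 2, 20002 in NT NC replicate 3 and 26293 in T NDE replicate 3, against 6.59 to 38.0 CPM in the other 9 libraries. The summed level of 12 salivary gland genes ran from 13.1 to 43295 CPM and was highest in T NDE replicate 3. These 3 libraries are named beside the results they touch. Markers of B cells were present in each library: the summed level of 13 pan B cell genes lay between 4962 and 6900 CPM, and that of 6 T cell genes between 668 and 881 CPM. Genes of immature B cells in bone marrow, such as Rag1, which starts the joining of segments, summed to only 22.5 to 31.9 CPM. In that sum Vpreb3 lay between 14.3 and 20.4 CPM and Rag1 between 0.311 and 7.08 CPM.

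Of the 160 segments, 27 had no count in any library, 26 of them pseudogenes and 1 the V gene Igkv1-35. With 281089 kappa V counts in all, a count of 0 allows a share of up to 0.00107%. A count was found in all 12 libraries for 95 segments, and 111 to 123 segments were detected per library. Pseudogenes together took 0.299 to 0.926% of the family in any library. The counts were concentrated on few segments: 35 had a mean share of 1% or more, and the 10 with the highest mean share held 39.1% of the family together. Shares are of counts and are not divided by length, but the coding sequences of the 100 V genes are all 338 to 371 bases long, and the same 10 segments led per base of coding sequence.

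The leader was Igkv1-110, with shares of 8.02, 2.93 and 6.02% in NT NC, 4.48, 4.96 and 6.60% in T NC, 4.60, 8.45 and 6.97% in NT NDE and 4.90, 5.92 and 6.41% in T NDE. It was among the 3 largest segments in 10 of the 12 libraries, and its groups overlapped. Igkv1-117 had a mean share of 5.02% and lay between 2.30 and 6.85%. Igkv10-96 had a mean of 4.61% and lay between 2.5 and 7.26%. These 3 segments were large everywhere, with a standard deviation over the 12 libraries of 25.4 to 33.6% of their mean. The next 3 segments reached the top of the list by way of few libraries. Igkv12-46 had a mean of 3.86% but a median of 1.21%, Igkv17-127 a mean of 3.68% and a median of 1.75%, and Igkv6-15 a mean of 3.88% and a median of 2.20%. Their standard deviations were 160, 125 and 95.4% of their means. The remaining 4 of the leading 10 were Igkv4-86 with a mean share of 3.55% (2.07 to 5.93%), Igkv19-93 with 3.21% (1.27 to 10.2%), Igkv1-135 with 2.88% (1.90 to 5.54%) and Igkv6-23 with 2.60% (1.21 to 5.66%).

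**Figure D1:**
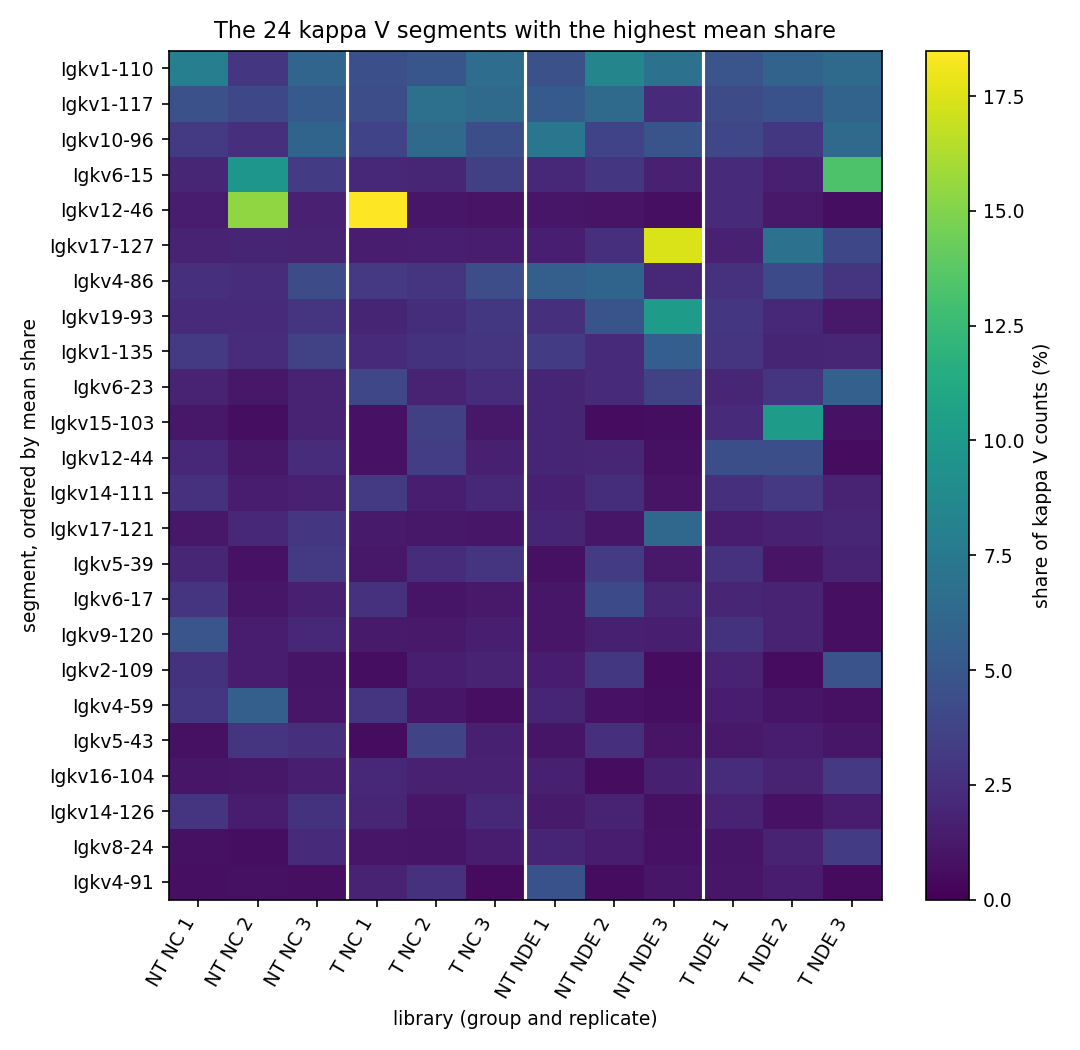
Share of the kappa V counts (colour, %) of the 24 segments with the highest mean share (vertical axis) in each of the 12 libraries (horizontal axis, white lines between groups). Igkv1-110, Igkv1-117 and Igkv10-96 were bright across the plot, while Igkv12-46, Igkv17-127, Igkv6-15, Igkv15-103 and Igkv19-93 had isolated bright cells of 10.2 to 18.5%.

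In 5 libraries the largest segment was one that had a low share in most of the others. The segments described next were picked after their values were seen, as those with a share of at least 4% that was at least 3 times the median of the other 11 libraries, so their sizes are a description with no test. Igkv12-46 took 18.5% of the family in T NC replicate 1 and 15.4% in NT NC replicate 2, with 6923 and 5894 counts. In the other libraries of those groups it took 1.46 and 1.70% in NT NC and 1.15 and 0.950% in T NC, and in the nerve-inhibited groups it took 1.15, 0.994 and 0.760% in NT NDE and 2.18, 1.28 and 0.714% in T NDE. The 2 libraries with the expansion thus came from different groups, 1 with and 1 without a tumour, and neither had its nerves inhibited. Bpifa2 stood at 997 CPM in NT NC replicate 2 and at 9.40 CPM in T NC replicate 1, where the share was larger.

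Igkv17-127 took 17.4% of the family in NT NDE replicate 3, with 5642 counts. It took 6.94% in T NDE replicate 2 and 4.03% in T NDE replicate 3, and between 1.46 and 2.60% in the other 9 libraries. Its near relative Igkv17-121 was also highest in NT NDE replicate 3, at 6.21%, against 1.15 to 2.90% in the other 11. In that library Igkv19-93 stood at 10.2%, against 1.27 to 4.82% elsewhere.

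Igkv6-15 took 13.3% in T NDE replicate 3 and 9.71% in NT NC replicate 2, and 1.60 to 3.49% in the other 10 libraries. Both are libraries with high Bpifa2, but the third such library, NT NC replicate 3, had 3.19%. Whether the salivary signal has a part in these shares was not tested. Igkv15-103 took 10.3% in T NDE replicate 2, with 2472 counts, and 3.47% in T NC replicate 2, against 0.609 to 2.28% in the other 10. Smaller cases were Igkv4-59 in NT NC replicate 2 at 5.62%, Igkv9-120 in NT NC replicate 1 at 4.84%, Igkv2-109 in T NDE replicate 3 at 4.70% and Igkv4-91 in NT NDE replicate 1 at 4.69%.

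Another rule, with a lower minimum share, was met by 6 segments: their share in 1 library was at least 0.5% and at least 3 times the highest share in any other library. In T NC replicate 3 these were Igkv8-19, at 5.27% against at most 1.05% elsewhere, and Igkv3-1, the V segment closest to the J segments, at 4.30% against at most 0.842%. In NT NDE replicate 1 they were Igkv4-74, at 2.97% against 0.727%, and Igkv6-14, at 2.83% against 0.718%. The other two were Igkv3-9 in NT NC replicate 2, at 1.48% against 0.134%, and Igkv1-122 in NT NC replicate 3, at 1.34% against 0.265%. Igkv3-9 had 566 counts in that library, 30 in NT NDE replicate 1 and 0 to 4 in each of the other 10. The 6 cases lay in 4 libraries of 3 groups, and T NDE had none. Igkv3-9 and Igkv1-122 were large in libraries with high Bpifa2, the other 4 in libraries with 8.67 and 38.0 CPM of it. Just outside the rule were Igkv15-103 at 2.95 times the next library, Igkv4-51 at 2.89 and Igkv4-53 at 2.75 times. With a factor of 2 in place of 3 the rule gave 17 segments, and with a factor of 5 it gave 3. The 185 heavy chain V genes, treated the same way within their own total, gave 15.

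**Figure D2:**
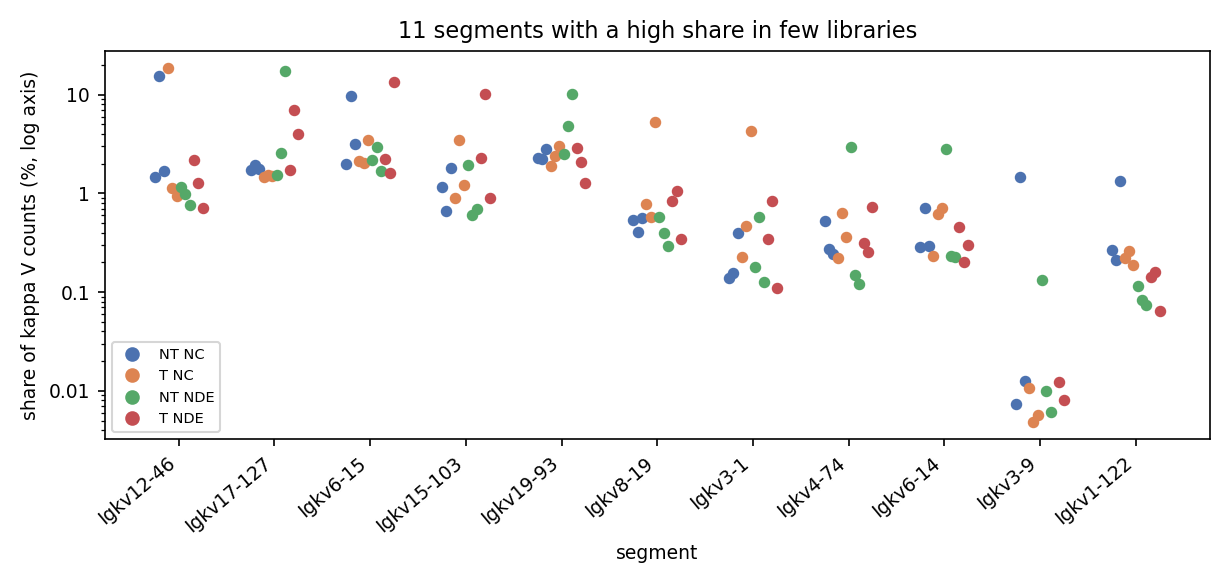
Share of the kappa V counts (vertical log axis, %) of 11 segments that were high in few libraries (horizontal axis), with 1 point per library in the order of the groups and the group by colour; 1 share of 0 is not drawn. Igkv12-46 has 2 high points, in NT NC and T NC, and Igkv8-19, Igkv3-1, Igkv4-74, Igkv6-14, Igkv3-9 and Igkv1-122 have 1 each.

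The summed kappa V level was 764, 1589 and 799 CPM in NT NC, 1531, 943 and 1046 in T NC, 1164, 1083 and 1700 in NT NDE and 775, 1222 and 1189 in T NDE. CPM is scaled by the trimmed mean of M-values (TMM) here. All 4 groups overlapped, and the spread within NT NC alone covered most of the range of the 12 libraries. Group means were 1051 ± 466 CPM in NT NC, 1173 ± 314 in T NC, 1316 ± 335 in NT NDE and 1062 ± 249 in T NDE (SD, n = 3). On the log2 scale nerve inhibition, compared within tumour status, gave a difference of 0.12, which was 0.38 without and -0.14 with a tumour (exact two-sided permutation p = 0.635 over 400 arrangements). Tumour, compared within nerve status, gave -0.05 (exact permutation p = 0.820), and the interaction gave -0.52 (exact permutation p = 0.290). None of these exceeded the spread between libraries, and the smallest p this design allows is 0.005. The tumour difference changed sign when the 3 libraries with high Bpifa2 were left out, to 0.09. Without those libraries the nerve difference was 0.26 and the interaction -0.99. That leaves NT NC replicate 1, the library with the lowest level, alone in its group, so only the differences are given.

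Diversity was measured as the effective number of segments, the exponential of the Shannon entropy, which is the number of equally common segments that would be as diverse. It was 54.9, 40.2 and 55.7 in NT NC, 41.7, 52.9 and 52.5 in T NC, 50.5, 48.1 and 32.2 in NT NDE and 61.2, 47.5 and 38.6 in T NDE. NT NDE replicate 3, with Igkv17-127 and Igkv19-93 large, was the least diverse, and T NDE replicate 1, where the largest segment took 4.90%, the most. In the former 6 segments made up 50% of the counts, in the latter 18. Nerve inhibition gave a difference of -3.33 segments (exact two-sided permutation p = 0.535), tumour 2.14 (exact permutation p = 0.690) and their interaction 6.69 (exact permutation p = 0.530). Without the 3 libraries with high Bpifa2, which leaves NT NC replicate 1 alone in its group, the interaction was 16.6.

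**Figure D3:**
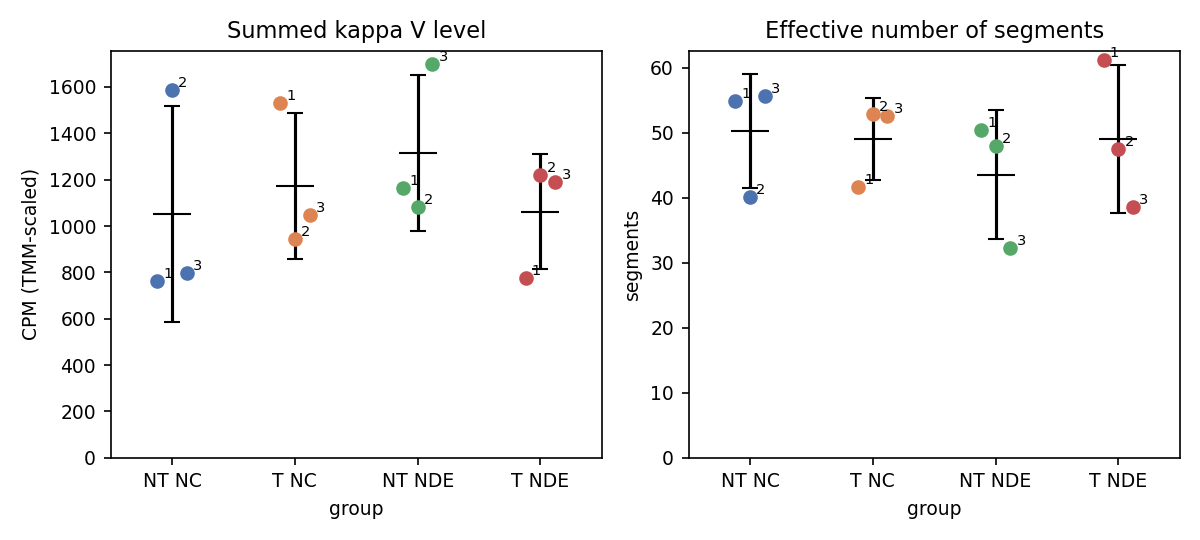
Summed kappa V level (left, TMM-scaled CPM) and effective number of segments (right) in the 4 groups; points are libraries with their replicate number, the horizontal line is the mean and the bar the SD (n = 3). The groups overlap in both panels, and the 12 libraries run from 764 to 1700 CPM and from 32.2 to 61.2 segments.

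Across the 12 libraries a higher level went with a lower diversity (Pearson r = -0.907, permutation p = 8e-05, Benjamini-Hochberg p = 0.0002 over 5 relations; Spearman rho = -0.930, permutation p = 7e-05, adjusted p = 0.000175). Both measures come from the same counts, and a segment that is large in 1 library adds to the level and lowers the diversity. Without the 2 libraries farthest from the median level, NT NC replicate 1 and NT NDE replicate 3, r was -0.883, and over the 9 libraries with low Bpifa2 it was -0.938. With each library's largest segment left out, a choice made after the data were seen, the sum ran from 703 to 1404 CPM. Other large segments stayed in that sum. Among them were Igkv19-93 in NT NDE replicate 3 and Igkv6-15 in NT NC replicate 2, with 10.2 and 9.71% of all kappa V counts.

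The level followed the constant region Igkc, which every kappa transcript carries, with r = 0.986 (permutation p = 1e-05, the smallest that 100000 resamples can give, adjusted p = 5e-05) and rho = 0.979 (permutation p = 1e-05, adjusted p = 5e-05). Without the 2 farthest libraries r was 0.979. The ratio of kappa V to Igkc CPM stayed between 0.858 and 0.986. The kappa V level also rose and fell with the summed level of 15 plasma cell genes, among them Jchain and Xbp1, which ran from 1076 CPM in NT NC replicate 1 to 1833 CPM in NT NC replicate 2 (r = 0.835, permutation p = 0.00088, adjusted p = 0.00147; rho = 0.853, permutation p = 0.0008, adjusted p = 0.00133; without the 2 farthest libraries r = 0.764). For 12 germinal centre B cell genes r was 0.710 (permutation p = 0.0106, adjusted p = 0.0133; rho = 0.692, permutation p = 0.0162, adjusted p = 0.0202). That relation was weaker without the same 2 libraries, at r = 0.549 (permutation p = 0.1). Leaving out libraries for their distance from the median level also narrows the range of the level. The plasma cell sum gives most weight to genes with high CPM. Of these, Jchain was at 215 CPM in NT NC replicate 1 and at 662 CPM in NT NC replicate 2. Slamf7, another gene of that list, was at 84.3 and 89.1 CPM there. The relation of each of the 15 genes to the level was not tested. No relation with the 13 pan B cell genes was found (r = 0.03, permutation p = 0.928; rho = 0.00699, permutation p = 0.991; adjusted p = 0.928 and 0.991; r = -0.195 without the 2 farthest libraries). Over the 9 libraries with low Bpifa2 the 4 values of r were 0.984, 0.798, 0.875 and -0.07.

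**Figure D4:**
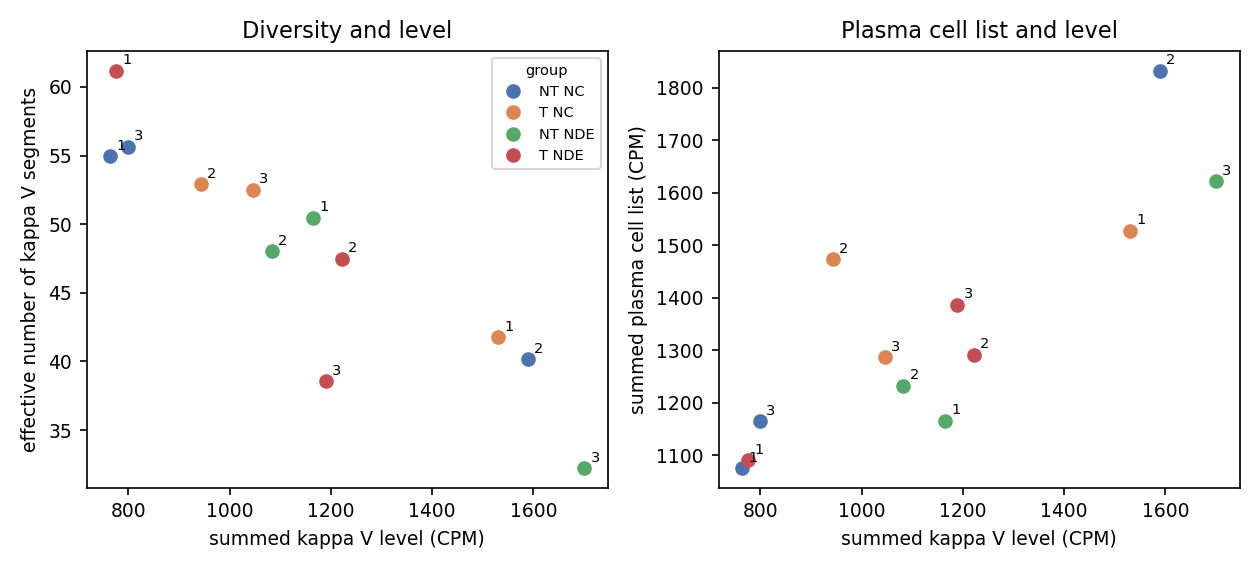
Effective number of kappa V segments (left) and summed level of 15 plasma cell genes in CPM (right) against the summed kappa V level in CPM; each point is a library, coloured by group and numbered by replicate. Diversity falls from 61.2 to 32.2 segments as the level rises from 775 to 1700 CPM, and no group forms a cluster of its own.

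The 5 genes outside the immunoglobulin loci whose CPM ranked most like the summed kappa V level over the 12 libraries were Creld2 and Hsp90b1 (rho = 0.930 each) and Eif1a, Selenok and Ssr2 (rho = 0.923 each). Creld2 belongs to the plasma cell list, Hsp90b1 encodes a chaperone of the endoplasmic reticulum and Ssr2 a subunit of the translocon-associated protein complex there. Creld2 ran from 26.5 to 56.4 CPM and Hsp90b1 from 392 to 687 CPM. They were chosen for this likeness, so no p is given.

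By subgroup, a family of related V segments given by the first number of the symbol, Igkv4 took the highest mean share, 16.4% over 33 segments (11.4 to 22.5%), followed by Igkv1 with 14.7% over 13 segments (10.1 to 17.7%) and Igkv6 with 11.8% over 9 (8.90 to 21.8%). The single segments described above moved whole subgroups. Igkv12 took 20.8% in T NC replicate 1 and 19.1% in NT NC replicate 2 against 2.63 to 10.1% elsewhere, and Igkv17 took 23.6% in NT NDE replicate 3 against 2.67 to 8.66%. The highest Igkv6 share was in T NDE replicate 3, the library led by Igkv6-15, where Igkv6-23 was also at its maximum of 5.66%.

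The V segments span 3149 kb upstream of Igkj1, the first of 5 J segments, and those in the orientation of the J segments join by deletion of the DNA between, those in the opposite orientation by inversion. Of the 100 V genes, the 38 in the orientation of the J segments took 42.2% of the counts on average (30.9 to 53.3%) and the 62 in the opposite orientation took 57.3% (46.4 to 68.7%). Ordered by distance to Igkj1 in 4 sets of 25, the nearest took 22.1%, the second 21.6%, the third 21.8% and the farthest, from 2180 to 3166 kb away, 34.0% (24.9 to 46.3%). The farthest set holds Igkv1-110, Igkv1-117, Igkv17-127, Igkv15-103 and Igkv1-135, and its maximum was in NT NDE replicate 3. The median segment differed less between the sets, at 0.594, 0.513, 0.50 and 0.649% from nearest to farthest. The leading segments therefore came from both ends and the middle of the locus, with Igkv6-15 on the side near the J segments.

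**Figure D5:**
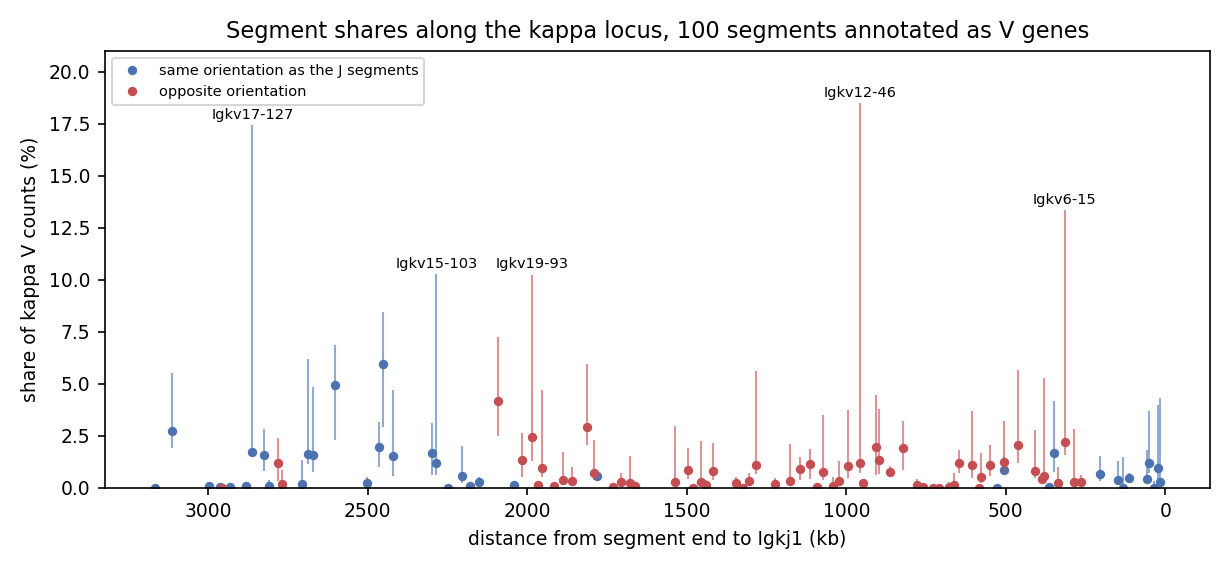
Share of the kappa V counts (vertical axis, %) of the 100 segments annotated as V genes against the distance of each to Igkj1 (horizontal axis, kb, J segments to the right); points are medians over 12 libraries, lines run from the lowest to the highest library, and colour gives the orientation. The 5 named segments have maxima of 10.2 to 18.5% while their medians stay between 1.20 and 2.45%.

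Whether libraries of one group resembled each other in segment use was asked with the Bray-Curtis dissimilarity of the shares, which is 0 for equal composition and 1 for none in common. Its mean was 0.323 within groups and 0.310 between groups, over 15400 ways to divide the libraries into 4 sets of 3 (exact one-sided permutation p = 0.930 for a lower within-group mean). On average libraries of a group were slightly less alike than libraries of different groups. The most alike pair was NT NC replicate 3 and T NDE replicate 1, at 0.184, and the least alike was NT NC replicate 2 and NT NDE replicate 3, at 0.484. NT NDE replicate 3 had the highest mean dissimilarity to the other 11 libraries, at 0.405.

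Each segment was then compared between groups with the quasi-likelihood test of edgeR on 17301 genes, with Benjamini-Hochberg adjustment over all of them. The filter on low counts kept 92 segments, 88 V genes and 4 pseudogenes, which held 99.4% of the family's counts, and dropped 68. None of the 92 passed an adjusted p of 0.05 in any of the 7 comparisons made. Of all genes, 0.00578% passed in T NDE against NT NDE, 0.0983% for nerve inhibition averaged over tumour status and 0% in the other 5. At an unadjusted p under 0.05 there were 5 segments in T NC against NT NC (7.8% of all genes), 4 in T NDE against T NC (5.83%), 7 in NT NDE against NT NC (10.4%) and 11 in T NDE against NT NDE (3.7%). There were 9 for the interaction (7.11%), 9 for average nerve inhibition (9.2%) and 7 for average tumour (4.5%). DESeq2 called 2 segments in NT NDE against NT NC (0.798% of all genes) and 1 for average nerve inhibition (0.751%). It called 0 of them in T NC against NT NC (0.231% of all genes), the tumour-bearing nerve comparison (0.254%), T NDE against NT NDE (0.0983%), the interaction (0.249%) and average tumour (0.0347%). With limma-voom 0 passed in all 7. When the summed kappa V count took the place of the library size, so that shares were tested, edgeR called 1 segment in T NC against NT NC (0.0462% of all genes), 2 in NT NDE against NT NC (0.0867%), 1 in the interaction (0.225%), 1 for average nerve inhibition (0.0925%) and 1 for average tumour (0.0173%). On that scale it called 0 for nerve inhibition among tumour-bearing mice (0.133%) and for tumour among nerve-inhibited mice (0.0462%). Genes outside the family were scaled by the kappa V count too, so these rates over all genes are not a like-for-like background. The comparisons share groups, so their values are not independent of each other.

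The median log2 fold change of the 92 segments was 0.24 for T NC against NT NC, -0.20 for T NDE against T NC, 0.26 for NT NDE over NT NC and -0.09 for T NDE against NT NDE, while the median over all genes lay between -0.00694 and 0.00833. In T NC against NT NC, 5 segments had all 3 libraries of one group above all 3 of the other and 0 had them below, against 15% of all genes in either direction. The counts were 1 above and 3 below in T NDE against T NC (9.14% of all genes), 6 and 5 in NT NDE against NT NC (18.9%), and 2 and 9 in T NDE against NT NDE (8.43%).

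The segments with the smallest p-values in each comparison are given next as values, since none passed edgeR's test with TMM factors over the 12 libraries. Igkv1-122 was at 2.02, 3.37 and 10.7 CPM in NT NC and at 1.35, 0.911 and 1.26 CPM in NT NDE, so these groups did not overlap. It was at 3.39, 2.49 and 1.95 CPM in T NC and at 1.10, 1.98 and 0.772 CPM in T NDE. The fitted log2 difference between NT NDE and NT NC was -2.19 (SE 0.56, edgeR adjusted p = 0.252), and it shrank to -1.21 without NT NC replicate 3, the library with its single high share and with high Bpifa2. DESeq2 gave -2.20 with an adjusted p of 0.00723. For nerve inhibition averaged over tumour status the edgeR value was -1.61 (SE 0.40, adjusted p = 0.267), and that of DESeq2 -1.61 (adjusted p = 0.00362).

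Igkv4-57-1 was at 16.2, 4.0 and 6.20 CPM in NT NC against 2.85, 3.27 and 2.15 CPM in NT NDE, and at 4.58, 5.26 and 3.73 CPM in T NC against 3.78, 5.12 and 2.61 CPM in T NDE. NT NC replicate 1 was higher than all other libraries. The log2 difference of NT NDE from NT NC was -1.66 (SE 0.45, edgeR adjusted p = 0.272; DESeq2 adjusted p = 0.00976) and -0.88 without that library. Without the 3 libraries with high Bpifa2, which leaves NT NC replicate 1 alone in its group, it was -2.55 with an edgeR adjusted p of 0.000507.

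In T NC against NT NC the smallest p was that of Igkv5-45, at 1.01, 1.79 and 1.97 CPM in NT NC and 4.09, 3.51 and 2.01 CPM in T NC, a log2 difference of 1.01 (SE 0.33, edgeR adjusted p = 0.494). Igkv8-19, the expansion of T NC replicate 3, had a log2 difference of 2.24 (SE 0.82, edgeR adjusted p = 0.593), which fell to 0.79 without that library. In T NDE against NT NDE it was Igkv6-32, at 19.9, 19.9 and 12.6 CPM in NT NDE and 9.64, 9.12 and 8.74 CPM in T NDE, with a log2 difference of -0.93 (SE 0.26, edgeR adjusted p = 1.00). Igkv3-5 in the same comparison was high in 2 libraries of NT NDE, at 20.9 and 19.4 CPM against 3.59 CPM in the other and 2.66 to 5.02 CPM in T NDE (log2 difference -1.96, SE 0.55, edgeR adjusted p = 1.00). In T NDE against T NC, and in the interaction, Igkv4-57 led, at 8.30, 14.0 and 12.4 CPM in T NC, 7.34, 9.02 and 4.49 in T NDE, 8.77, 8.12 and 7.01 in NT NC and 10.7, 13.6 and 9.29 in NT NDE. Its log2 differences were -0.73 (SE 0.25, edgeR adjusted p = 0.771) and, for the interaction, -1.22 (SE 0.35, edgeR adjusted p = 0.622). The 3 smallest p-values of each comparison also included Igkv4-81, Igkv8-18, Igkv4-90, Igkv14-130, Igkv13-85 and Igkv19-93, with edgeR adjusted p-values of 0.311 to 1.00.

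The other genes of the pathway were read from lists in the same fits. Of Igkc, 5 J segments and 6 lambda light chain genes, none of 12 passed edgeR's test in any comparison. At an unadjusted p under 0.05 there was 1 of the 12 in T NC against NT NC (7.8% of all genes), 1 in T NDE against T NC (5.83%), 1 in the interaction (7.11%), 1 for average tumour (4.5%) and 0 in the other 3. DESeq2 called only Iglc1 among them, in T NC against NT NC (0.231% of all genes). Of the 15 plasma cell genes none passed with edgeR or DESeq2, and 1 had an unadjusted p under 0.05 in T NDE against T NC (5.83% of all genes), 1 for average nerve inhibition (9.2%) and 0 in the other 5.

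Of 11 germinal centre genes tested none passed with edgeR or DESeq2 in any comparison. At an unadjusted p under 0.05 there were 3 of the 11 in T NC against NT NC (7.8% of all genes) and 3 in NT NDE against NT NC (10.4%). All 11 had positive log2 differences in both, with medians of 0.28 and 0.37 against medians over all genes of -0.00694 and 0.00478, and these comparisons share the NT NC libraries. There was 1 in the interaction (7.11%), 2 for average nerve inhibition (9.2%), 1 for average tumour (4.5%) and 0 in the other 2. Of the 13 pan B cell genes none passed with edgeR, and 1 had an unadjusted p under 0.05 in T NDE against T NC (5.83% of all genes), 1 in NT NDE against NT NC (10.4%), 1 for average nerve inhibition (9.2%) and 0 in the other 4. DESeq2 called only Cr2 among them, for average nerve inhibition (0.751% of all genes). limma-voom called none of the genes of these 4 lists. The 5 J segments together stayed between 56.6 and 98.4 CPM and were highest in T NDE replicate 1, the library with the second-lowest kappa V level.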

How the data were processed

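RNA-seq of 12 mouse lymph node libraries was analysed from whole-number read counts per gene, as deposited by the authors in 1 table of 55487 genes and not normalized by them. Per the labels' protocols RNA was extracted with Trizol for Illumina mRNA libraries, and per the submitters' processing notes HISAT2 2.0 and mm10 were used. The sources used here do not state the read counter, annotation, strand setting or how multi-mapping reads were treated. Every column was mapped to a sample by its label, and IDs without a symbol held at most 0.0548% of a library. The members and gene lists were chosen with earlier results of these data known.

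CPM is counts per 1000000 counts of the TMM-scaled library. Shares are counts of a segment over the summed kappa V counts of that library. Genes were tested with edgeR 4.0.16 in R 4.3.3 (quasi-likelihood, robust, TMM factors, filterByExpr with a minimum count of 10 and a total of 15), with 1 mean per group over all 12 libraries. The edgeR fit and the permutation within strata were tested on simulated data. DESeq2 1.42.0 and limma 3.58.1 (voom) were alternatives. Summed levels and effective numbers were compared by exact permutation within strata, relations by 100000 resamples (scipy 1.17.1). With 3 libraries against 3 alone, an exact p cannot go below 0.1. P-values measure the spread between these libraries, which may be technical where libraries share mice. Named segments are the 10 with the highest mean share, the single-library expansions, the 3 with the smallest p in each comparison, and those said to be picked after their values were seen. Sequences and positions come from GENCODE M21 (GRCm38, the same build as mm10), whose transcripts matched all 160 symbols. Same-numbered libraries of different groups had correlations of deviations from -0.133 to 0.517, so the replicate numbers were not taken to pair libraries.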

Additional observations from a re-analysis of the deposited data

How the results depend on the processing

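Counts of kappa V segments that passed the test stayed at 0 in all 7 comparisons with limma-voom, with DESeq2 size factors, with TMM factors computed without antigen receptor genes, with no filter and with a stricter filter on low counts. With the replicate number as a block, 0 segments passed in any comparison, though the numbers do not pair the libraries. DESeq2's own test gave 2 in NT NDE against NT NC and 1 for average nerve inhibition. With the summed kappa V count as the library size, so that shares are tested, 1 passed in T NC against NT NC (Igkv8-19), 2 in NT NDE against NT NC (Igkv4-57-1 and Igkv1-122), 1 in the interaction (Igkv9-123), 1 for average nerve inhibition (Igkv1-122) and 1 for average tumour (Igkv8-19). Igkv8-19 took 5.27% in T NC replicate 3 and at most 1.05% elsewhere, and Igkv1-122 took 1.34% in NT NC replicate 3 and at most 0.265% elsewhere. Igkv4-57-1 took 2.12% in NT NC replicate 1 and at most 0.777% in any other library. Igkv9-123 took 0.881% in T NDE replicate 3, a library with high Bpifa2, and 0.677% in NT NC replicate 1, against at most 0.345% elsewhere. Without the 3 libraries with Bpifa2 above 100 CPM, Igkv4-57-1 was the 1 called in T NC against NT NC, in NT NDE against NT NC and in the interaction, and 2 (Igkv4-57-1 and Igkv4-50) were called for average nerve inhibition. Those fits leave NT NC with 1 library, assumed to vary like the other groups. Leaving out each library gave 0 to 1 in NT NDE against NT NC and in T NDE against NT NDE, where Igkv3-5 passed without NT NDE replicate 2, and 0 to 0 in the other 5. The cause of these changes was not tested.

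No level or diversity difference passed its test under any alternative. Leaving out 1 library moved the tumour difference in level from -0.15 to 0.12 and that in effective number from -0.88 to 4.78; the first was 0.0899 without the high-Bpifa2 libraries. In the same way the nerve difference ranged from 0.0206 to 0.291 in level and from -6.35 to -0.487 in effective number, and the interactions from -0.863 to -0.310 and from 0.630 to 11.9. Without the high-Bpifa2 libraries the nerve differences were 0.259 and -3.04, the tumour difference in effective number 2.43 and the interactions -0.991 and 16.6. All values without these libraries rest on NT NC replicate 1 alone in its group. The germinal centre relation weakened to r = 0.549 without the 2 farthest libraries, and that with pan B cell genes turned to -0.195 and, without high-Bpifa2 libraries, to -0.0702. The number of single-library expansions was 17, 3, 14 and 6 with a factor of 2, a factor of 5, no minimum share and a minimum of 1%. The composition test gave p = 0.693 with Spearman distances and 0.918 with Euclidean distances of log2 shares (exact permutation tests). Leaving out the high-Bpifa2 libraries could not be run there, since groups of 3 are needed. Depth limits segments of a few counts per library, and counts of near-identical segments depend on a counting rule not given in the sources used here.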

Other observations

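The partner chains had dominant segments of their own. In the heavy chain the effective number of V segments was 28.0 in NT NC replicate 2, 22.3 in T NC replicate 2, 26.5 in NT NDE replicate 3 and 34.9 to 56.1 in the other 9 libraries. Ighv7-3 led the heavy V counts in NT NC replicate 2 (26.3%), NT NC replicate 3 (9.60%), NT NDE replicate 2 (22.4%) and T NDE replicate 3 (11.4%). It also led them in T NC replicate 2, with 38.4%. There the kappa V segments were among the more even, at an effective number of 52.9. The same library had the highest lambda V level, 529 CPM against 119 to 299 CPM in the other 11, the lowest ratio of kappa V to lambda V, 1.78 against 3.96 to 9.80, an Iglc1 level of 219 CPM against 28.0 to 72.7 CPM, and an Igha level of 945 CPM against 34.4 to 305 CPM. Igha encodes the heavy chain of IgA.

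In T NC replicate 1, where Igkv12-46 took 18.5% of the kappa V counts, Ighv5-15 took 8.74% of the heavy V counts against at most 0.475% in any other library, and Ighg2c stood at 635 CPM against 20.4 to 343 CPM. In NT NDE replicate 3, led by Igkv17-127, Ighv1-53 took 24.6% of the heavy V counts, less than 3 times its highest share in another library. Ighv1-81 took 9.20% there, against at most 3.06% in any other library, and Ighg1 stood at 879 CPM. Ighg1 was also high in T NDE replicate 2 (825 CPM), led by Igkv15-103, where Ighv5-6 took 9.48% against at most 1.14% elsewhere, and in T NDE replicate 3 (701 CPM), led by Igkv6-15, where Ighv1-7 took 10.8% against at most 0.780%. In the other 9 libraries Ighg1 lay between 17.0 and 163 CPM. Bulk counts do not show which heavy and light chains belong to the same cells.

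Of 6 T cell genes, 0 passed with edgeR or DESeq2 in any comparison. At an unadjusted edgeR p under 0.05 there were 4 of the 6 in T NDE against T NC (5.83% of all genes) and 4 for average nerve inhibition (9.2%), and 0 in the other 5 comparisons. In both, 0 of the 6 had a positive log2 difference, and the medians were -0.22 and -0.16. These comparisons share libraries.

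Of 8 heavy chain isotype genes, 0 passed with edgeR or DESeq2. At an unadjusted edgeR p under 0.05 there was 1 in T NDE against T NC (5.83% of all genes), 1 for average nerve inhibition (9.2%) and 0 in the other 5. Of 5 tested genes of immature B cells, 0 passed with edgeR or DESeq2. At an unadjusted edgeR p under 0.05 there was 1 in T NC against NT NC (7.8%), 1 in T NDE against T NC (5.83%), 2 in NT NDE against NT NC (10.4%), 2 for average nerve inhibition (9.2%), 1 for average tumour (4.5%) and 0 in the other 2.

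The salivary gland genes were high in few libraries, which the counts below do not separate from group differences. Bpifa2 was at 10.4, 997 and 20002 CPM in NT NC and at 15.8, 25.9 and 26293 CPM in T NDE. It lay between 6.59 and 38.0 CPM in T NC and NT NDE. Whether tumour or nerve status has a part in these counts was not tested. Of 11 salivary gland genes tested, 0 passed with edgeR. At an unadjusted edgeR p under 0.05 there were 5 in T NC against NT NC (7.8% of all genes), 8 in T NDE against T NC (5.83%), 6 in NT NDE against NT NC (10.4%), 9 in T NDE against NT NDE (3.7%), 10 in the interaction (7.11%) and 0 in the 2 averaged comparisons. DESeq2 called 2, 2, 5, 4 and 6 of them in these 5 comparisons, against 0.231, 0.254, 0.798, 0.0983 and 0.249% of all genes, and 0 in the 2 averaged ones. limma-voom called none of the genes of these 4 lists.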
